A study of Mus musculus with 22 samples.

Results

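Diclofenac, which blocks the cyclooxygenases, relieves pain and inflammation and can injure the liver. Its effect on the mouse liver that was shared by days 1, 3 and 14 was taken as the difference between all 11 diclofenac treated livers and all 11 saline livers, with day as a block. Of 13340 genes tested, 5503 (41.3%) differed in the same direction on each of the 3 days, 2772 of them upward and 2731 downward, and 7837 did not. Of the former, 357 also passed the test of the common difference. They held rises of acute phase proteins, led by Lcn2, Saa2 and Orm2. Also among the rises were metallothioneins, some magnesium and zinc transporters, and 5 of 14 neutrophil markers, while 1.8% of all genes tested rose. Of these 5, Chil3 and Prtn3 passed the signal filter through diclofenac livers alone. Some glutathione transferases, carboxylesterases and mitochondrial carriers were among the genes that fell. The list of conjugation enzymes and carboxylesterases had a median of -0.01 at day 3. Its 7 falls became 1 without replicate 2 of the diclofenac group at day 1.

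Male C57BL6 mice aged 8 weeks received diclofenac sodium at 30 mg/kg by intraperitoneal injection each day, a dose the labels call low, or the matching volume of saline. Livers were taken at 24 h, at 72 h or at 14 days, called days 1, 3 and 14, and each day had saline animals of its own. Analysed here were 3 saline and 3 diclofenac arrays at day 1, the same at day 3, and 5 of each at day 14, while the labels state 5 animals for every group. No allele or transgene is named, and nothing says that livers were pooled. Each array measured whole liver, so that fewer cells of a type and less RNA per cell cannot be told apart. Hepatocyte markers had the highest mean of the cell type lists on every array, with a mean log2 signal of 15.08 to 16.15.

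Array signals are MAS5 intensities scaled by the authors to a common trimmed mean of 500.004 per array, and their medians were 75.2 to 89.9. Correlations between arrays of 1 group were at least 0.876, and replicate 3 of the diclofenac group at day 14 had the lowest mean correlation with its group (0.878). As a description, arrays correlated with their own group at a mean of 0.903 (day 1), 0.903 (day 3) and 0.9 (day 14) after diclofenac, and of 0.914, 0.917 and 0.917 after saline. Hybridisation controls were higher with diclofenac by 0.17 on the log2 scale (p = 0.00345, two-sided exact permutation test within days) and the 3'/5' signal ratio of the control transcripts by 0.06 in log2 (p = 0.0237, same exact test). Their part in the results was not tested. The 18S control differed by 0.10 between treatments (exact permutation p = 0.424) and was higher at later days in both groups. Of the saline livers, replicate 1 of day 14 had the highest mean log2 signal over the acute phase genes that rose (13.75), followed by replicate 3 of day 1 (13.60). The number of arrays limits the precision, and the p-values measure the spread between these livers.

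The acute phase response is the change in plasma protein synthesis by which hepatocytes answer injury or infection. Interleukin-6 acts through its receptor and the transcription factor STAT3, and interleukin-1 and tumour necrosis factor act through NF-kB and C/EBP factors, to raise serum amyloids, orosomucoids, fibrinogen and protease inhibitors. SOCS3 limits the STAT3 signal. Neutrophils, which carry S100A8, S100A9 and granule proteases, are drawn to the injured liver by chemokines such as CXCL1. Zinc and iron are moved out of the blood in the same response by importers, metallothioneins and siderophore-binding lipocalin.

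The promoters of the 5 acute phase genes with the lowest adjusted p that have an entry in the RefSeq promoter table are shown because these genes carry the shared rise. Each runs 5′ to 3′ from 250 bases before the transcription start to 50 bases after it on GRCm38.p6, and capitals mark matches, on either strand, to STAT (TTCNNNGAA), C/EBP (TTGCNNAA) or NF-kB (GGNNTTTCC) letters. Lcn2 lies at chr2:32387690-32387989 on the minus strand, Serpina3n at chr12:104406458-104406757 on the plus strand, Saa4 at chr7:46732554-46732853 on the minus strand, Lrg1 at chr17:56121897-56122196 on the minus strand and Apcs at chr1:172895005-172895304 on the minus strand.
Lcn2: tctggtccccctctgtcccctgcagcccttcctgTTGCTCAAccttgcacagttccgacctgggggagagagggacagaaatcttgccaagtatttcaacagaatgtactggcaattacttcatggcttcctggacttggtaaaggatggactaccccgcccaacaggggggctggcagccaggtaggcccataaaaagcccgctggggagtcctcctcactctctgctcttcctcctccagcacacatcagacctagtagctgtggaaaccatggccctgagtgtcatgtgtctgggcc
Serpina3n: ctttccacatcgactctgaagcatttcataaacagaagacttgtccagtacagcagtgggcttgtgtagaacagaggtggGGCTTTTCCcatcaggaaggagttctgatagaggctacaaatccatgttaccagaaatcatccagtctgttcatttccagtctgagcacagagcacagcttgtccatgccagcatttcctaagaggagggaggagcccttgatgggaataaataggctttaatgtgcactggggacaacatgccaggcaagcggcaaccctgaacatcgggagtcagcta
Saa4: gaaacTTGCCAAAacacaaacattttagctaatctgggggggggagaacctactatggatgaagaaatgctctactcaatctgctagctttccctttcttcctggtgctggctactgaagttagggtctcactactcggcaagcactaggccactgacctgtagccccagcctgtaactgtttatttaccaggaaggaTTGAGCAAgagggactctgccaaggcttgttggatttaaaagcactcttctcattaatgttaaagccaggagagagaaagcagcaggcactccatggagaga
Lrg1: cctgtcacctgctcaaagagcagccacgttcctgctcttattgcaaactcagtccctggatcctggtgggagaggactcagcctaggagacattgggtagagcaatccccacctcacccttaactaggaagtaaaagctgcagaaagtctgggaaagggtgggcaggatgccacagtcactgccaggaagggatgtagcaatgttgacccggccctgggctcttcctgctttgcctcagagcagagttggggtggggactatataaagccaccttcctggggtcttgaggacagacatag
Apcs: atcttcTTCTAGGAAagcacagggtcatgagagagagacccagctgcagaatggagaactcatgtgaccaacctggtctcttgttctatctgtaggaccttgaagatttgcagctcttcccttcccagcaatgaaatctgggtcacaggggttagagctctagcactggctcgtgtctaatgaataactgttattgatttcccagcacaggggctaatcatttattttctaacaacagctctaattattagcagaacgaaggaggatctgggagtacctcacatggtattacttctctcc

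Lcn2 held 1 C/EBP match, whose first base lies 216 bases before the start, and Saa4 held 2, at 245 and 52 bases before it. Serpina3n held 1 NF-kB match at 170 bases, Apcs 1 palindromic STAT match at 244 bases, and Lrg1 none. Of the 22 acute phase genes that rose, 17 had an entry in the table. Among these, 10 held a C/EBP match, 5 a STAT match, 3 an NF-kB match and 4 none of them, while of all 32851 promoters listed there 10.8% held the C/EBP letters, 8.3% the STAT letters and 5.82% the NF-kB letters. The 10 include Saa1, Saa2, Saa3 and Saa4, Orm2 and Orm3, and both Fga and Fgb, which are related genes. Their promoters may therefore not be independent, and the shares were not tested. A match describes letters only and shows no binding.

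In the test of the common difference, 240 genes rose (1.8% of those tested) and 117 fell (0.877%), by limma with a Benjamini-Hochberg adjusted p under 0.05 and the same sign on each day. Counts of called genes in a list or family below are to be read beside these shares. The lists were chosen with earlier results of these data known, so that their counts describe the members and do not test a list. A list with a single called gene describes that gene and not the list. Mtss1 also passed the test with a mixed sign (-0.02, 0.31 and 0.69 on days 1, 3 and 14), so that 358 passed in all, and 2678 had an unadjusted p under 0.05. The 240 rises had a median of 0.60 on the log2 scale and ran from 0.19 to 4.98. Of these, 65 were above 1 and 19 above 2. The 117 falls had a median of -0.47 and ran from -0.18 to -3.11, with 11 beyond 1 and 1 beyond 2. By day, the rises had medians of 0.55, 0.59 and 0.65 at days 1, 3 and 14, and the falls -0.42, -0.38 and -0.53. Every one of the 11 diclofenac livers lay above the saline mean of its day in 172 of the 240 rises and below it in 71 of the 117 falls. These genes were called on the same livers with the same sign required on each day. The counts therefore describe the called genes only, and no share over all genes was taken. Across all genes the differences of 2 days correlated at r = 0.26 (days 1 and 3), 0.34 (1 and 14) and 0.26 (3 and 14), a description over 13340 genes, which are not independent.

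Diclofenac livers lay wholly above the saline livers on each of the 3 days for 57 genes (0.427%) and wholly below for 13 (0.0975%), and 56 and 12 of them were among the called genes. The exceptions, both named after their values were seen, were Tm9sf2 (0.23, adjusted p = 0.0924) and Idh3b (-0.39, 0.0684). An exact permutation of the labels within days, over 100800 regroupings, gave its smallest p of 1.984e-05 to 70 genes. By construction these are the genes apart on each day, so they add no further evidence. After adjustment 663 genes passed, among them 351 of the 357, on the same values and the same blocked difference. The 20 genes apart on every day with the largest change were Chil3, Saa2, Lcn2, S100a8, Orm2, S100a9, Cxcl1, Orm3, Apcs, Steap4, Cpne8, Slc41a2, Cyb561, Tifa, Serpina3n, Prg4, Slc3a1, Fgl1, Fance and Mt2.

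As a reading on livers that the choice did not use, genes were called on 2 days and read on the day left out. With day 1 left out, 111 genes rose on days 3 and 14, and 110 of them were also higher at day 1 (99.1%, against 50.3% of all genes). Of the 111, 60 had diclofenac livers wholly above saline at day 1 (54.1%, against 8.09% of all genes). With day 3 left out, 53 of 55 were higher at day 3 and 40 lay wholly above (72.7%, against 10.7%). With day 14 left out, 71 of 72 were higher at day 14 and 37 lay wholly above (51.4%, against 1.96%). For the falls, lower values were found at day 1 for 24 of 30 genes, with 8 wholly below (26.7%, against 8.04% of all genes). At day 3 it was 21 of 21, with 7 wholly below (33.3%, against 8.98%), and at day 14 it was 15 of 20, with 2 wholly below (10%, against 1.48%). The median difference of the falls was smaller on the day left out than on the days of choice, for instance -0.27 against -0.59 for day 1, while that of the rises was 0.68 against 0.87.

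**Figure D1:**
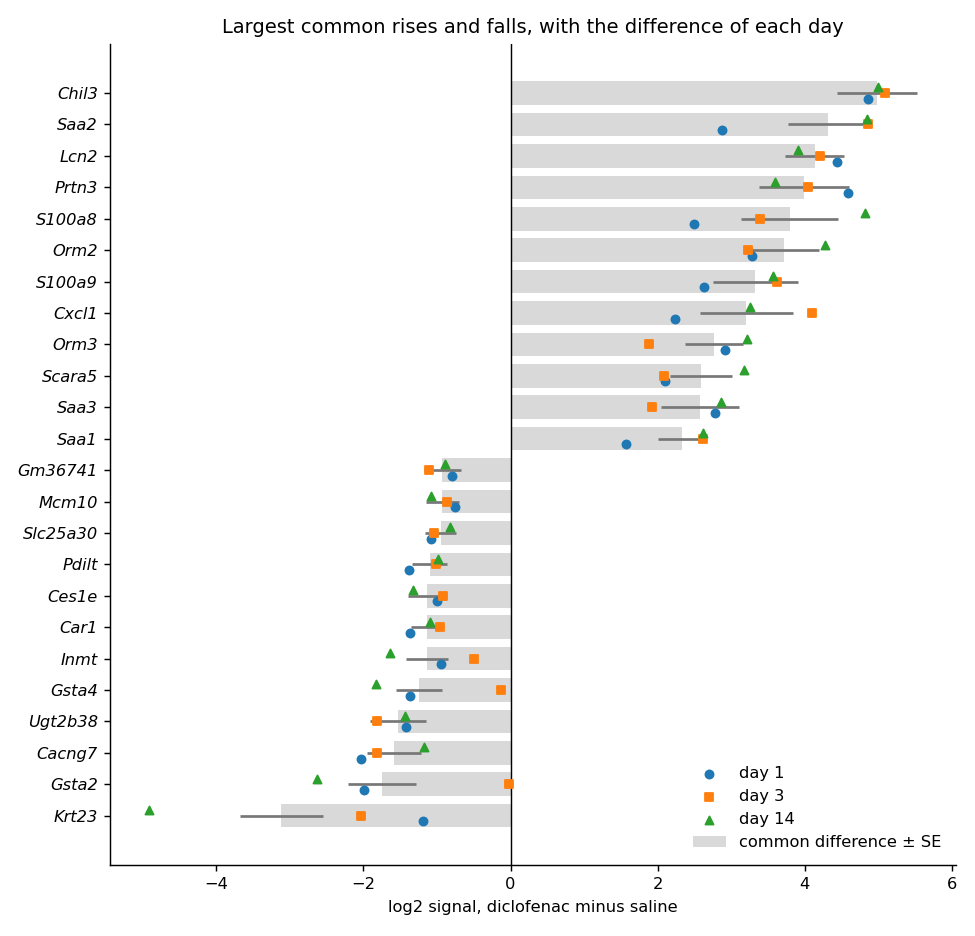
Bars give the common log2 difference (diclofenac minus saline, with its standard error) of the 12 top rises and the 12 top falls by the naming rule, and symbols give the difference on days 1, 3 and 14. All symbols lie on the side of their bar, as the rule requires, and those of Krt23 spread from -1.18 at day 1 to -4.92 at day 14.

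Positive acute phase proteins, most of which the liver secretes more of in inflammation, were the list with the largest share of called genes. This share is in part set by the choice of members, which was made with earlier results of these data known. The list also counts Steap4, a metalloreductase that is not a secreted plasma protein. Of 30 tested members 22 rose and none fell, with a median difference of 1.06 on the log2 scale against -0.01 over all genes tested. Of the 22, 16 had diclofenac livers wholly above saline on each day, as had 57 of all 13340 genes (0.427%). The 22 were called on the same livers, so that the 16 describe called genes only. The mean log2 signal of the list was 12.78 to 13.40 in saline and 13.89 to 14.78 in diclofenac livers at day 1, 12.69 to 12.80 and 13.68 to 14.32 at day 3, and 12.56 to 13.52 and 13.74 to 15.76 at day 14, so that the groups did not overlap on any day. Leaving out any 1 liver left 20 to 23 members called.

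Lcn2, lipocalin 2, which binds bacterial siderophores (chromosome 2, 32384637 to 32387739), had the lowest adjusted p of all genes. Lcn2 signals in saline livers were 1244, 798 and 4473 on day 1, 1809, 785 and 490.0 on day 3, and 16436, 5222, 1907, 1727 and 1465 on day 14. With diclofenac, Lcn2 signals were 18782, 67973 and 35352 on day 1, 33467, 15585 and 8493 on day 3, and 42654, 38268, 110278, 35309.5 and 50377 on day 14. The lowest diclofenac liver of each day lay above the highest saline liver of that day, although the saline liver of replicate 1 at day 14 reached 16436. The common difference was 4.14 (SE 0.40, adjusted p = 7.23e-06, limma), or 17.6-fold, and the daily differences were 4.44, 4.21 and 3.91.

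Saa2, an inducible serum amyloid A (chromosome 7, 46751833 to 46754313), was also highest in that saline liver. Saa2 signals in saline livers were 6405, 1847 and 19235 on day 1, 1682, 1307 and 1063 on day 3, and 49011, 3170.2, 847, 694 and 1416 on day 14. With diclofenac, Saa2 signals were 41541, 53736 and 40734 on day 1, 45204, 37708 and 33156 on day 3, and 97675, 55739.7, 107095, 63367 and 68461 on day 14. At day 14 replicate 1 of the saline group read 49011, close to the lowest diclofenac liver at 55739.7, and the other 4 saline livers read 694 to 3170.2. The common difference was 4.31 (SE 0.54, adjusted p = 9.77e-05, limma). Saa1 and Saa3 rose by 2.33 and 2.58, and Saa4, the constitutive member, by 0.99 (SE 0.11, adjusted p = 2.6e-05) with 0.72, 0.95 and 1.17 on the 3 days. Saa1 and Saa2 are near-identical in sequence, so that their probe sets may share RNA.

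Serpina3n, a secreted inhibitor of serine proteases (chromosome 12, 104406646 to 104414334), differed by nearly the same amount on each day. Serpina3n signals in saline livers were 3709, 3408 and 4778 on day 1, 5001, 5535 and 4384 on day 3, and 9413, 5908, 5203, 5175 and 3604 on day 14. With diclofenac, Serpina3n signals were 10422, 27887 and 11671 on day 1, 22283, 15543 and 11561 on day 3, and 23255, 18504, 49217, 13625 and 16137 on day 14. Groups were apart on every day, and the differences were 1.94, 1.68 and 1.95, with a common value of 1.87 (SE 0.20, adjusted p = 2.36e-05, limma). Apcs, serum amyloid P and the main inducible pentraxin of the mouse, rose by 2.13 (SE 0.26, adjusted p = 9.19e-05). Apcs signals ranged from 16142 to 49899.8 against 5535 to 10138 at day 1, 17871 to 35179 against 4982 to 7637 at day 3, and 13729 to 92562 against 3707 to 7013 at day 14 (diclofenac against saline), without overlap. Crp, the other classical pentraxin, rose by only 0.27 from a high level (adjusted p = 0.0391).

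The orosomucoids, plasma glycoproteins that bind basic drugs, all rose, Orm2 by 3.72 (SE 0.47, adjusted p = 0.000101), Orm3 by 2.77 and Orm1 by 0.91. Orm2 signals ranged from 22977 to 61396 against 1605 to 8506 at day 1, 11016 to 30295 against 1560.5 to 2503 at day 3, and 24839 to 85774 against 643 to 17958 at day 14 (diclofenac against saline). They are close paralogs, and probe sets of 1 may read RNA of another. Lrg1, a leucine-rich glycoprotein of plasma, rose by 1.13 (SE 0.13, adjusted p = 4.4e-05) and Prg4, lubricin, by 1.86 (SE 0.24, adjusted p = 0.000124). Lrg1 signals ranged from 32023 to 45257 against 15154 to 24899 at day 1, 28443 to 39145 against 13767 to 14942 at day 3, and 28414 to 70695 against 13348 to 20910.0 at day 14 (diclofenac against saline). Fgl1, a fibrinogen-like secreted protein, rose by 1.23, Lbp, which carries lipopolysaccharide, by 0.75, Itih3 and Itih4, which bind hyaluronan, by 0.79 and 0.81, and ceruloplasmin (Cp) by 0.61, although another probe set of Cp gave -0.02. Among the 8 members that did not pass were A2m (2.67, adjusted p = 0.137), Il1rn (1.29, 0.214), haptoglobin Hp (0.28, 0.113) and hepcidin Hamp (-1.38, 0.253), which were named for their role. The differences of Hamp on the 3 days were -0.24, 0.08 and -2.95.

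Negative acute phase proteins, which fall in many inflammatory states, held no fall that passed the test. Of 13 tested, 3 rose, Fetub (fetuin B) by 0.43 (SE 0.09, adjusted p = 0.00911), Hrg (histidine-rich glycoprotein) by 0.38 (SE 0.08, adjusted p = 0.00946) and Ahsg (fetuin A) by 0.29 (SE 0.08, adjusted p = 0.0479). Albumin (Alb) had 0.09 with adjusted p = 0.607, and its difference was -0.09 after quantile normalization. Fetub signals ranged from 13707 to 15868 against 13599.5 to 13765 at day 1, 14305 to 16468 against 13329 to 15094 at day 3, and 21468 to 27286 against 12309.6 to 15354 at day 14 (diclofenac against saline). Its groups were apart at day 14 alone, where the difference was 0.80 against 0.11 at day 1 and 0.15 at day 3.

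**Figure D2:**
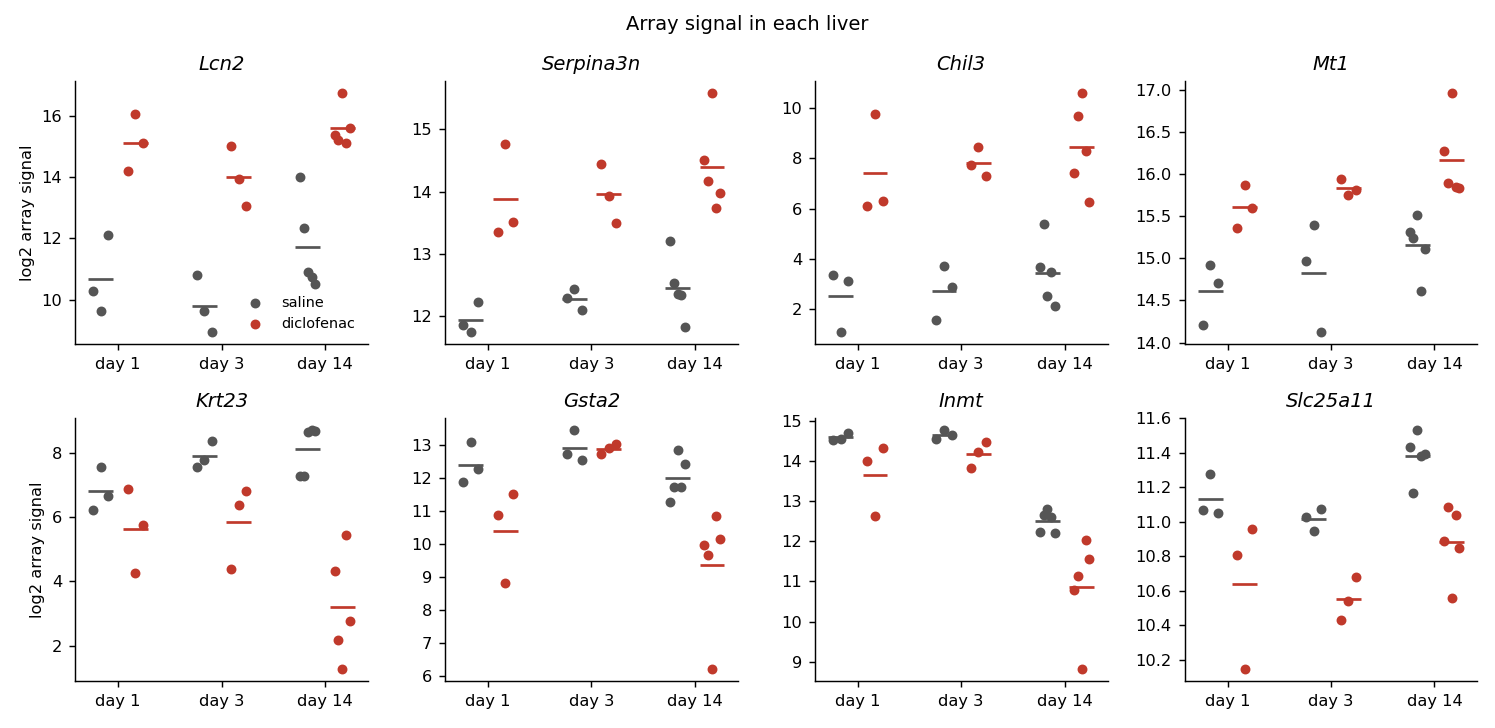
Each point is the log2 array signal of 1 liver, saline in grey and diclofenac in red, by day, and the line is the group mean; the log2 axis of each panel has its own range. Lcn2, Serpina3n, Chil3, Mt1, Inmt and Slc25a11 did not overlap on any day, Gsta2 overlapped at day 3, and Krt23 overlapped at day 1.

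Some receptors and signal carriers of the response also rose. In the list of IL-6 family receptors and JAK-STAT genes 5 of 32 rose and none fell. They were Il1r1, the receptor of interleukin-1, by 1.41 (SE 0.26, adjusted p = 0.00327), Stat3 by 0.90 (SE 0.17, adjusted p = 0.0039), its inhibitor Socs3 by 1.93 (SE 0.47, adjusted p = 0.0274), and Il13ra1 and Il4ra, chains of the interleukin-4 and interleukin-13 receptors, by 1.12 and 0.49. Stat3 signals ranged from 2924 to 5137 against 1839 to 2193 at day 1, 3807 to 5365 against 1924 to 2636 at day 3, and 2618 to 10311 against 1983 to 3104 at day 14 (diclofenac against saline). Groups were apart at days 1 and 3 and overlapped at day 14. The IL-6 receptor chains Il6ra (0.37, adjusted p = 0.124) and Il6st (0.31, 0.122) and Osmr (0.88, 0.183) did not pass. Without replicate 2 of the diclofenac group at day 1, the count was 3. Il1r1 is counted in this list, although interleukin-1 acts through NF-kB and C/EBP factors.

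Of 23 NF-kB subunits and regulators 2 rose. Nfkbiz, a nuclear IkB protein, rose by 1.22 (SE 0.27, adjusted p = 0.016) and Tifa, a TRAF6 adaptor, by 1.90 (SE 0.49, adjusted p = 0.0391). Tifa signals ranged from 875 to 2340.2 against 613 to 708 at day 1, 1181 to 4384 against 412 to 535 at day 3, and 599.7 to 30528 against 227 to 394 at day 14 (diclofenac against saline), and the upper value of day 14 is the liver of replicate 3. The subunits Rela and Nfkb2 had 0.09 and 0.24 (adjusted p = 0.452 and 0.627). The count was 1 without replicate 2 of day 1 in the diclofenac group and 5 without replicate 3 of day 14.

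Among 18 chemokines Cxcl1 and Ccl6 rose. Cxcl1 (chromosome 5, 90891245 to 90893121) attracts neutrophils. Cxcl1 signals in saline livers were 419.7, 478 and 592 on day 1, 742, 537 and 308 on day 3, and 257, 395, 239, 250.3 and 326 on day 14. With diclofenac, Cxcl1 signals were 911, 18542 and 741 on day 1, 20249.7, 7118 and 4249 on day 3, and 5865, 489.9, 39943, 496 and 2715 on day 14. All diclofenac livers exceeded all saline livers of their day, but the spread was wide, from 489.9 to 39943 at day 14. The common difference was 3.21 (SE 0.63, adjusted p = 0.00635, limma). Ccl6, a macrophage chemokine, rose by 1.21 (SE 0.31, adjusted p = 0.0353). Cxcl2 had 1.60 (adjusted p = 0.174) and Cxcl10 0.13 (0.751). Of 30 interferon-stimulated genes Ly6e (0.96, SE 0.17, adjusted p = 0.00245) and Iigp1 (0.49, 0.0391) rose, and of 18 adhesion genes Icam1, which binds leukocyte integrins, by 0.86 (SE 0.20, adjusted p = 0.0224). The interferon count was 1 to 5 when 1 liver was left out, 5 without replicate 4 of day 14 in the diclofenac group, and Icam1 lost its call without replicate 1 of day 3.

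Markers of neutrophils rose in part. Of 14 tested, 5 passed, Chil3, Lcn2, Prtn3, S100a8 and S100a9, with a list median of 1.20 and 12 of 14 above 0 on each day, and the count was 5 whichever liver was left out. The mean log2 signal over all 16 neutrophil genes with a probe set was 5.03 to 6.59 in saline and 6.46 to 9.36 in diclofenac livers. Defining granule genes that did not pass were Mpo (0.47, adjusted p = 0.288), Elane (1.33, 0.0876), Ngp (1.07, 0.203) and Ltf (0.50, 0.619). Lcn2 is also made by hepatocytes, and the part of these cells in the other rises was not tested.

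Chil3, a chitinase-like lectin of myeloid cells (chromosome 3, 106147554 to 106167564), had the largest common difference of all called genes. Chil3 signals in saline livers were 10.3, 2.13 and 8.82 on day 1, 2.97, 13.3 and 7.39 on day 3, and 12.9, 41.9, 5.76, 11.2 and 4.44 on day 14. With diclofenac, Chil3 signals were 69.0, 872 and 79.7 on day 1, 210.3, 349.8 and 157 on day 3, and 168, 814, 1541, 310.4 and 76.2 on day 14. The saline values lie below the array median on every array, so that the size of the rise, 4.98 (SE 0.55, adjusted p = 2.36e-05, limma), is uncertain, and it was 1.99 when the array median was added before log2. S100a8 and S100a9, the calprotectin subunits, rose by 3.80 and 3.33. S100a8 signals ranged from 366 to 11744 against 186 to 275 at day 1, 812 to 1679 against 97.0 to 139.8 at day 3, and 167 to 13001 against 5.80 to 97.0 at day 14 (diclofenac against saline). Prtn3, a granule protease, rose by 3.99 (SE 0.61, adjusted p = 0.000936) and overlapped at day 14 alone. Its saline signals also lie below the array median in all 11 livers, so that this size is uncertain too, and it was 2.19 with the array median added.

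Kupffer cell and macrophage markers were mostly higher with few calls. Mpeg1, a pore-forming protein of macrophages, rose by 0.89 (SE 0.18, adjusted p = 0.00705), and 1 of 18 passed. Above 0 on each day were 17 of the 18, with a median of 0.60, and 2772 of all 13340 genes. Marco, a scavenger receptor, had 1.89 (adjusted p = 0.0528), Cd163 0.94 (0.0687), and the resident markers Clec4f and Adgre1 0.22 and 0.21 (0.393 and 0.444). The count was 6 without replicate 3 of day 14 in the diclofenac group, and 10 when both diclofenac livers and the saline liver of highest acute phase level were left out. Of 9 monocyte genes Chil3, Plac8 (0.99) and Fn1 (0.60) rose, and Fn1 is also made by hepatocytes. None of 7 genes each of T and NK cells, B and plasma cells and dendritic cells passed in either direction.

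**Figure D3:**
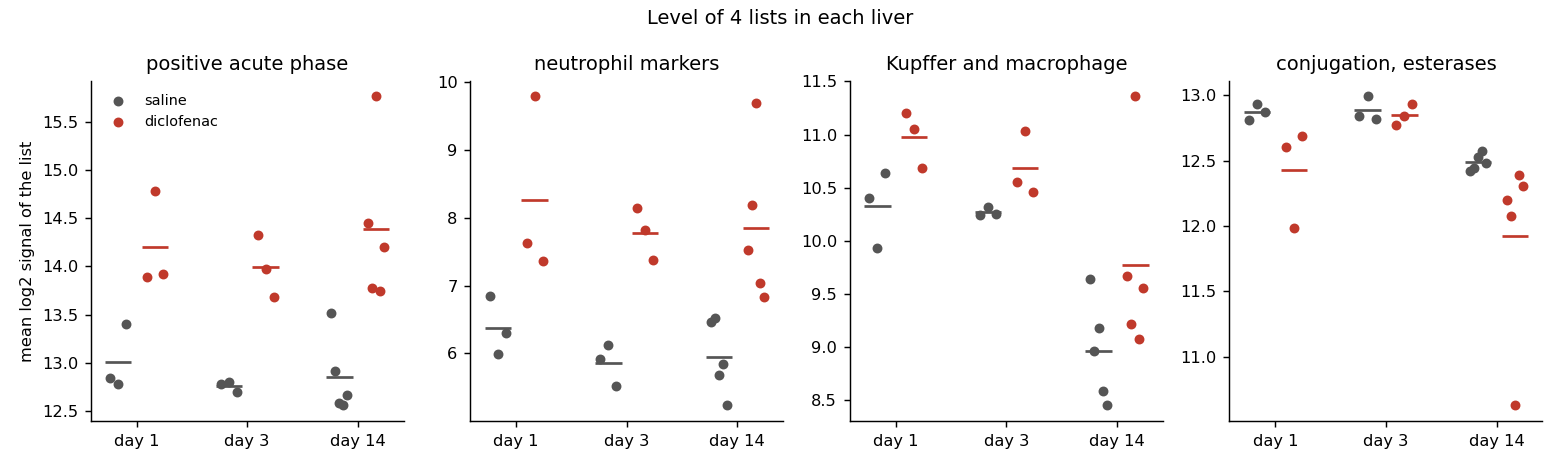
Each point is the mean log2 signal, over the tested genes of a list, in 1 liver (saline grey, diclofenac red), by day, with the group mean as a line; panels have their own ranges. The acute phase and neutrophil lists did not overlap between groups on any day, and the highest diclofenac points of days 1 and 14, replicate 2 and replicate 3, are also the lowest in the panel of conjugation enzymes.

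Both livers that led the acute phase list, replicate 2 of day 1 (mean log2 14.78) and replicate 3 of day 14 (15.76), were also lowest in the list of conjugation enzymes (11.99 and 10.63, with 12.69 and 12.39 as the highest of their groups). Without both of them, a choice made after the data were seen, 237 genes rose and 126 fell, of which 189 and 87 were among the 240 and 117. Acute phase members called were then 21 and neutrophil members 5. Leaving out the saline liver of day 14 with the high acute phase level as well gave 264 and 141. Without replicate 2 of day 1 alone, 1 gene each rose among the chemokines, the P450 enzymes and the transporters instead of 2, and none among the heat shock and p53 genes. With the same liver left out, falls numbered 1 instead of 2 in fatty acid and triglyceride synthesis, and none instead of 1 in the urea cycle, growth hormone and iron lists, while monocyte markers held 2 rises instead of 3. Without replicate 3 of day 14 alone, 3 chemokines and 4 transporters rose. The part of these livers in the results was not tested.

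Of 22 metallothioneins and zinc transporters 6 rose and none fell. Mt1 (chromosome 8, 94178883 to 94180327), which binds zinc and copper in the cytosol, had differences of 1.00, 1.00 and 1.00 at days 1, 3 and 14. Mt1 signals in saline livers were 18966, 30890.3 and 26652 on day 1, 32147, 42991 and 17827 on day 3, and 40681, 38660.2, 46665, 25095 and 35329.5 on day 14. With diclofenac, Mt1 signals were 42030.1, 59628 and 49697 on day 1, 62817, 55121 and 57282 on day 3, and 79215, 60824, 127497, 58815 and 58184 on day 14. No saline liver of a day reached the lowest diclofenac liver of that day, and the common difference was 1.00 (SE 0.15, adjusted p = 0.000765, limma). Mt2 rose by 1.22 (SE 0.20, adjusted p = 0.00191). Slc39a14 (ZIP14), an importer of zinc and iron, rose by 1.02 (SE 0.24, adjusted p = 0.0255), Slc30a5, a zinc transporter of the secretory pathway, by 0.66 (SE 0.09, adjusted p = 0.000406), and Slc39a1 and Slc30a4 by 0.41 and 0.29. Without replicate 2 of day 1 in the diclofenac group the count was 3.

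In iron and haem handling 6 of 33 rose and 1 fell. Beside Lcn2 and Cp these were Scara5, a ferritin receptor, by 2.59 (SE 0.42, adjusted p = 0.00173), Steap4, a metalloreductase, by 1.95 (SE 0.46, adjusted p = 0.0223), and the transferrin receptors Tfrc by 0.99 (SE 0.21, adjusted p = 0.0113) and Tfr2 by 0.27 (SE 0.05, adjusted p = 0.00784). Bmp6, which induces hepcidin, fell by 0.57 (adjusted p = 0.0486), but failed the test in 26 of 30 refits. Steap4 signals ranged from 5329 to 24947 against 3367 to 3938 at day 1, 8513 to 26225 against 2989.8 to 3471 at day 3, and 1523 to 71673 against 917 to 1436 at day 14 (diclofenac against saline). Its groups were apart on each day, and the top value of day 14 is again replicate 3. Another probe set of Scara5 gave -0.08, so that its rise rests on 1 probe set.

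Of 16 magnesium transporters Slc41a2 and Slc41a1 rose. Slc41a2 signals in saline livers were 1870.3, 812 and 1653 on day 1, 974, 1506 and 1607 on day 3, and 327, 604, 474, 318 and 635 on day 14. With diclofenac, Slc41a2 signals were 3428, 9672 and 2883 on day 1, 5886, 3193 and 3229.8 on day 3, and 2368, 903, 14324, 838 and 1896 on day 14. Groups did not overlap, and Slc41a2 rose by 1.93 (SE 0.36, adjusted p = 0.00425) and Slc41a1 by 0.78 (SE 0.16, adjusted p = 0.00946). Other transporters and membrane proteins apart on every day were Slc3a1, a chain of the cystine transporter, which rose by 1.52 (SE 0.25, adjusted p = 0.00153), Cyb561, an ascorbate-dependent electron carrier, by 1.93, and Cpne8, a copine that binds phospholipid, by 1.95. Fance, of the Fanconi anaemia complex, rose by 1.23 from signals of 19.9 to 194.3 in saline livers, and a second probe set gave -0.05. Of 35 organic ion and ABC transporters Atp11a, a phospholipid flippase, and Slc10a2, a bile acid importer, rose by 1.77 and 1.73, the latter from signals of 14.1 to 127.4 in saline livers.

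Some plasma proteins of the coagulation and complement systems rose by small amounts from high signals. Of 29 coagulation and fibrinolysis genes 10 rose and none fell. Serpina10, which inhibits factor Xa with protein Z, rose by 1.14 (SE 0.20, adjusted p = 0.00283), Kng1 (kininogen) by 0.49 (SE 0.10, adjusted p = 0.00964), Serpinf2 (alpha 2-antiplasmin) by 0.41 (SE 0.08, adjusted p = 0.0039), and the fibrinogen chains Fga and Fgb by 0.45 and 0.40. Serpinf2 signals ranged from 18665 to 25694 against 15621 to 18408 at day 1, 19214 to 22125 against 15802 to 17507 at day 3, and 18591 to 27584 against 12436 to 15904 at day 14 (diclofenac against saline), with no overlap on any day although the change was 1.33-fold. F9, F10, Plg, Pros1 and Hrg were the others, with 0.21, 0.34, 0.27, 0.56 and 0.38. Of 25 complement genes 5 rose, C4bp, an inhibitor of the classical pathway, by 0.70 (SE 0.12, adjusted p = 0.00245), Hc (C5) by 0.45 (SE 0.07, adjusted p = 0.00202), Serping1 (C1 inhibitor) by 0.45 (SE 0.08, adjusted p = 0.00318), Cfi by 0.36 and Cfb by 0.49. Without 1 liver the coagulation count was 7 to 11. The complement count was 4 without replicate 2 of day 1 and 8 without replicate 3 of day 14, both of the diclofenac group.

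Of 35 genes of the unfolded protein response and ER folding, Xbp1 (0.47, SE 0.11, adjusted p = 0.0226), Dnajb9 (0.61, SE 0.14, adjusted p = 0.0218) and Dnajc12 (1.22, SE 0.21, adjusted p = 0.00203) rose. Dnajc12 signals ranged from 3399.8 to 8773 against 1591 to 1662 at day 1, 2726 to 5467 against 1438 to 1719 at day 3, and 1689.5 to 6739 against 1103 to 1467 at day 14 (diclofenac against saline), apart on each day. Of 18 cytosolic heat shock genes Bag3 rose (0.53, adjusted p = 0.0408). The clock list of 23 genes, with a median of -0.10, held 2 rises. These were the repressor Bhlhe41 (1.55) and Tspan4 (0.84), a tetraspanin counted in the list that is not itself a clock component. Bhlhe41 lay below the array median in 10 of 11 saline livers, its difference was 0.45 with the median added, and it failed the test in 13 of 30 refits. The clock count was 1 without replicate 2 of day 1 in the diclofenac group. Of 22 p53 and growth arrest genes the death receptor Fas rose (0.44, SE 0.11, adjusted p = 0.0358) and Tsc22d1 fell (-0.62, SE 0.16, adjusted p = 0.0391). Of 24 genes of the growth hormone axis and male-biased liver genes, Egfr rose by 0.81 (SE 0.16, adjusted p = 0.00606) and Moxd1 by 3.31 (SE 0.63, adjusted p = 0.00538). Moxd1 rose from saline signals of 4.46 to 33.5, below the array median, and its size is uncertain. Its differences were 1.92, 1.44 and 5.26 on days 1, 3 and 14, and its common difference was 1.24 to 3.55 over 30 refits. At day 3 its diclofenac livers read 6.88, 78.3 and 7.41 against 4.46 to 7.01 in saline, so that this day rests mostly on 1 liver.

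**Figure D4:**
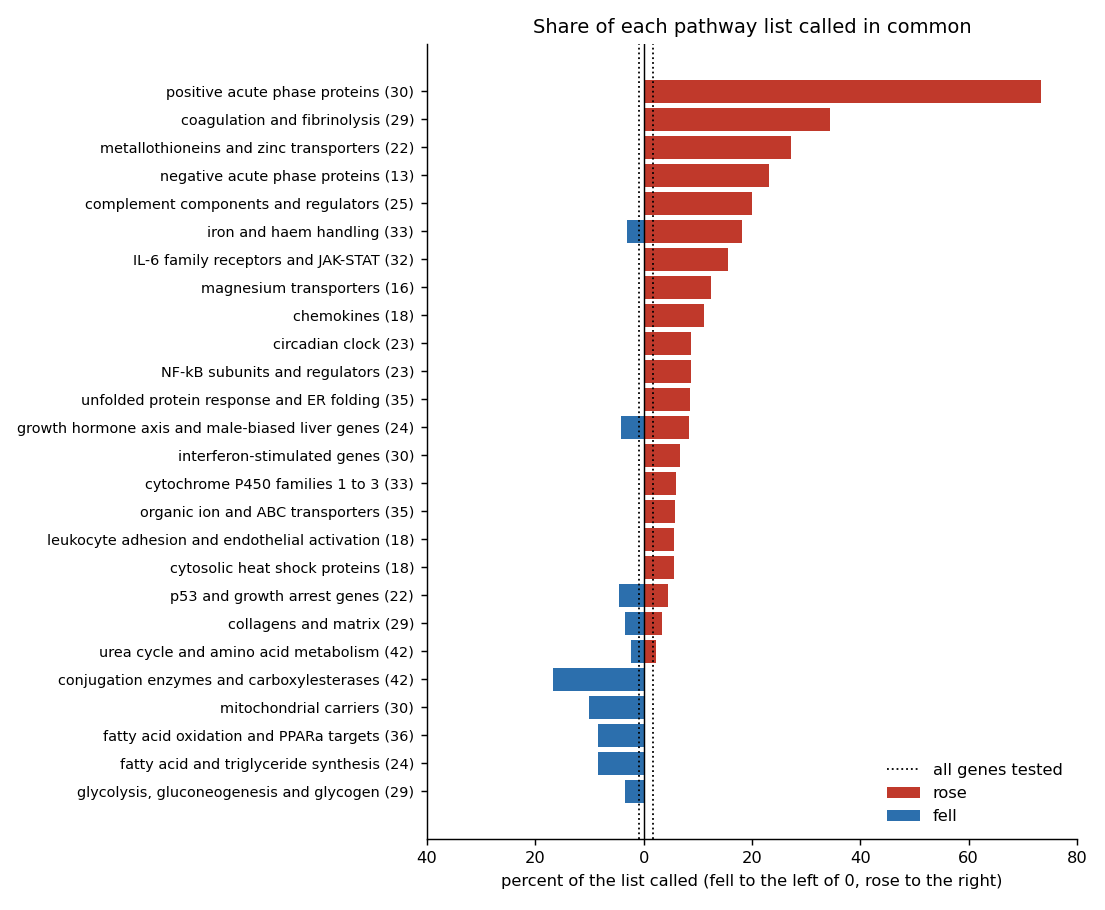
Bars give the percent of tested members, whose number stands in parentheses, that rose (red, to the right) or fell (blue, to the left) in each pathway list with at least 1 called gene; dotted lines give the shares over all genes tested, 1.8% and 0.877%. Positive acute phase proteins reach furthest to the right, with 22 of 30, and conjugation enzymes and carboxylesterases furthest to the left, with 7 of 42. The lists were chosen with earlier results of these data known.

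Conjugating and hydrolysing enzymes of drug metabolism were the list with the most falls. Of 42 tested, 7 fell and none rose, with a median of -0.28, and the daily medians were -0.40, -0.01 and -0.45. The 7 were the glutathione transferases Gsta2, Gsta4 and Gstm6, the carboxylesterases Ces1e and Ces2a, the glucuronosyltransferase Ugt2b38 and the methyltransferase Inmt. Without replicate 2 of day 1 in the diclofenac group the count was 1 instead of 7, and without both livers of highest acute phase level it was 8.

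Gsta2 (chromosome 9, 78331018 to 78347192) had a common difference of -1.75 (SE 0.46, adjusted p = 0.0443, limma). Gsta2 signals in saline livers were 3780.3, 8687 and 4913 on day 1, 6834, 11294 and 5933 on day 3, and 2480.1, 3388, 7355, 3419 and 5531 on day 14. With diclofenac, Gsta2 signals were 1904, 452 and 2943 on day 1, 6768, 7681 and 8345 on day 3, and 1008, 818, 74.9, 1833 and 1142 on day 14. It was lower in every diclofenac liver at days 1 and 14 and not at day 3, where the difference was -0.03, and Gsta4, which conjugates 4-hydroxynonenal, had -1.37, -0.13 and -1.83. Inmt (chromosome 6, 55170627 to 55174990), which methylates indolamines, was apart on each day. Inmt signals in saline livers were 23468, 24052 and 26535 on day 1, 24087, 28181 and 25624 on day 3, and 4773, 6507, 7145, 6208 and 4766 on day 14. With diclofenac, Inmt signals were 16291, 6292 and 20622 on day 1, 14434, 19126 and 22649 on day 3, and 1758, 2264, 452, 4226 and 3004 on day 14. Signals were lower at day 14 than earlier in both groups, and the common difference was -1.13 (SE 0.28, adjusted p = 0.0319, limma). Ces1e had -1.13 (SE 0.26, adjusted p = 0.0203), and Ugt2b38 -1.53 (SE 0.38, adjusted p = 0.0335). Cytochromes P450 of families 1 to 3 held 2 rises in 33 genes, Cyp3a13 (0.62, SE 0.10, adjusted p = 0.00188, apart on each day) and Cyp2c70, a bile acid hydroxylase (0.70, SE 0.18, adjusted p = 0.0424), and no fall. Cyp1a2 had -0.36 (adjusted p = 0.242).

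Krt23, a type I keratin (chromosome 11, 99477973 to 99493120), had the largest fall. Krt23 signals in saline livers were 74.6, 188 and 101 on day 1, 188, 217 and 327 on day 3, and 154, 155, 403, 419 and 412 on day 14. With diclofenac, Krt23 signals were 116, 19.2 and 54.4 on day 1, 20.8, 82.2 and 113 on day 3, and 20.2, 4.55, 2.43, 43.4 and 6.86 on day 14. Groups overlapped at day 1 and were apart at days 3 and 14. The common difference was -3.11 (SE 0.56, adjusted p = 0.0032, limma), with -1.18, -2.04 and -4.92 by day, and -1.32 when the array median was added before log2. Cidec, a lipid droplet protein, fell by 1.55 (adjusted p = 0.0104) and Cacng7, a channel subunit, by 1.58 (0.0213). Cidec signals ranged from 7.92 to 48.2 against 54.3 to 66.8 at day 1, 24.5 to 59.4 against 42.8 to 68.1 at day 3, and 70.4 to 175 against 293 to 1024 at day 14 (diclofenac against saline). At days 1 and 3 all of them lay below the array median, and the groups overlapped at day 3. The size of the fall of Cidec is therefore uncertain, and it was -1.69 to -0.93 over 30 refits. Car1, a carbonic anhydrase also listed as an erythroid marker, fell by 1.13, the protein disulfide isomerase homologue Pdilt by 1.10, the replication factor Mcm10 by 0.93 and the predicted gene Gm36741 by 0.93. The protease inhibitor Timp3 fell by 0.70 (adjusted p = 0.0162) and was apart on each day, while Fn1, fibronectin, was the only rise among 29 collagen and matrix genes and also apart on each day. Other probe sets of Timp3 gave -0.49, -0.97 and -0.41 and did not pass (limma adjusted p = 0.271, 0.116 and 0.215). A second probe set of Fn1 gave 0.31 and did not pass either (adjusted p = 0.416).

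Some mitochondrial carriers and lipid enzymes fell. Of 30 mitochondrial carriers Slc25a11, which exchanges oxoglutarate for malate, Slc25a30 and Slc25a42, a coenzyme A carrier, fell. Slc25a11 signals in saline livers were 2147, 2476 and 2122 on day 1, 2086, 1975 and 2150.4 on day 3, and 2763, 2297, 2963, 2665 and 2693 on day 14. With diclofenac, Slc25a11 signals were 1788, 1132 and 1989.9 on day 1, 1381, 1488 and 1638 on day 3, and 1891, 2169.7, 1505, 2099 and 1839 on day 14. Every diclofenac liver was below every saline liver of its day, with differences of -0.49, -0.47 and -0.50 and a common value of -0.49 (SE 0.08, adjusted p = 0.00203, limma). Of 36 genes of fatty acid oxidation and PPARa targets Fabp2, a fatty acid binding protein (-0.85, SE 0.17, adjusted p = 0.00701), the dehydrogenase Acadl (-0.28, SE 0.06, adjusted p = 0.0168) and the carnitine palmitoyltransferase Cpt2 (-0.41, SE 0.10, adjusted p = 0.035) fell, with a list median of -0.32 and daily medians of -0.03, -0.25 and -0.55. A second probe set of Cpt2 gave 0.39, and 8 genes of the list fell without replicate 3 of day 14 in the diclofenac group. The desaturase Fads2 and malic enzyme Me1 fell among 24 genes of fatty acid and triglyceride synthesis, by 0.70 and 0.61. Of 29 glycolysis, gluconeogenesis and glycogen genes G6pc, the last enzyme of glucose release, fell by 0.87 (adjusted p = 0.0324, with -0.04, -1.33 and -1.10 by day), and was no longer called, by the test or by its sign on a day, when any 1 of 11 livers was left out. Of 42 urea cycle and amino acid genes Aldh4a1 fell by 0.38 and Slc3a1 rose, while 1.8% of all genes tested rose and 0.877% fell.

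Several lists held no called gene. These were sterol synthesis and uptake (20 tested, median 0.38), bile acid synthesis (20, -0.17), glucocorticoid receptor targets (24, 0.02), NRF2 targets (25, 0.03), prostaglandin and leukotriene genes, the pathway the drug acts on (19, 0.05), cell cycle genes (24, 0.27) and female-biased liver genes (13, -0.01). Sqle, an enzyme of sterol synthesis, had 1.02, 1.36 and 1.23 on the 3 days (adjusted p = 0.17). With 1 liver left out sterol and bile acid genes had none in any refit, prostaglandin and leukotriene genes had up to 2 rises, and glucocorticoid, NRF2, cell cycle and female-biased genes up to 1, NRF2 targets also up to 1 fall. Of the other cell type markers, hepatocytes held Fgb as a rise in 10 genes, mesothelial cells Prg4 in 9, sinusoidal endothelial cells Oit3 as a fall in 12 (-0.46), stellate cells and fibroblasts Reln in 11 (-0.55, but 0.45 over the mean of its probe sets), adipocytes Cidec in 4 and erythroid cells Car1 in 6. Cholangiocytes, pancreatic acinar cells, muscle and platelets held none in 4, 5, 3 and 6.

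Whether the effect of diclofenac differed between the days was tested by the day by treatment term. No gene passed (0% of 13340, lowest adjusted p = 0.092, limma F-test), and 709 (5.31%) had an unadjusted p under 0.05, 18 of them among the 357 called genes. Of the called and named genes Fetub had the lowest (unadjusted p = 4.04e-05, adjusted p = 0.092), followed by Cyp2c70 (0.000801), with 0.13, 0.14 and 1.37 on days 1, 3 and 14, and Krt23 (0.00582). A p that misses the threshold does not show that effects were equal on the days, and the median standard error of a daily difference was 0.25 at days 1 and 3 and 0.19 at day 14. When array weights were used 13 genes passed, and without replicate 3 of day 14 in the diclofenac group 9 did.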

How the data were processed

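Liver RNA of 22 mice had been hybridised to Affymetrix Mouse 430 2.0 arrays, 1 per liver, and the deposited values are MAS5 signal intensities on a linear scale, 1 per probe set, which the authors scaled to 1 level per array; no detection call or scan date was used here, and the MAS5 version is not given in the sources used here. Groups follow the labels, and members and gene lists (33 of pathways, 16 of cell type markers) were chosen with earlier results of these data known.

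Intensities were taken to log2. Of 45101 probe sets, 34958 carry 1 gene symbol, 932 several and 9211 none (platform annotation). Each of 18194 genes was represented by its brightest probe set on average, and 13340 with a signal above the array median in at least 3 arrays were tested. Treatment was fitted in limma 3.58.1 (R 4.3.3) with day as a block and a variance trend, two-sided, and called at a Benjamini-Hochberg adjusted p under 0.05 with the same sign on each day. Differences between days came from a model of 6 group means (F-test). Exact permutations exchanged labels within days (100800 regroupings). The script was tested on simulated data.

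Genes are named by rule: the 12 largest rises and falls that are above the array median in the brighter group, up to 20 apart on each day, and up to 4 per list by adjusted p. Further members of lists are named for their role, and a choice made on seen values is stated. Positions are RefSeq on GRCm38.p6. Python 3.11.15 (matplotlib 3.10.9, numpy 2.4.6, pandas 2.3.3) wrote the tables and figures. The alternatives were no filter, a filter in 11 arrays, quantile normalization, centring on the array median, addition of that median before log2, averaging over probe sets, every probe set on its own, array weights, robust variances, equal weight of days, a term for replicate number, each array or day left out, the methods' t-test on each day, and, added later, 2 or 3 livers left out together.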

Additional observations from a re-analysis of the deposited data

Results flagged for a closer look

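In groups of 5, chance sets a value apart by Dixon's criterion in about 1 of 20 groups. Among the 306 groups of day 14 for the 153 genes named in the text, 37 had such a value, and 32 of these were replicate 3 of the diclofenac group. Its signal was the highest for A2m 90009 (others 85.3 to 113), Adgre1 972 (others 453 to 559), Ccl6 4922 (others 498 to 885), Cd163 4541 (others 750.3 to 1092), Cxcl2 4598 (others 22.2 to 56.4), Icam1 2262 (others 515 to 680.4), Il13ra1 3819.6 (others 767 to 1019), Il1rn 19829 (others 191 to 307), Marco 8389.7 (others 179 to 469), Mpeg1 4438 (others 1467 to 1862), Mt2 85820.0 (others 31525 to 41845), Mtss1 11222 (others 7104 to 7878), Nfkbiz 5816 (others 944 to 1380.1), Osmr 3485 (others 252 to 449), Plac8 3260.2 (others 483 to 702), Serpinf2 27584 (others 18591 to 20398), Slc39a14 20998 (others 2801 to 4497), Sqle 7526 (others 147 to 264), St3gal4 2940.4 (others 1322 to 1503), Steap4 71673 (others 1523 to 4537), Tifa 30528 (others 599.7 to 1373), Tm9sf2 23116 (others 15664 to 16696) and Xbp1 42352 (others 19990.0 to 21088). It was the lowest for Ces1e 226 (others 1285 to 2064), Cyp1a2 3405 (others 8828 to 12845), Etfdh 8403 (others 11079 to 12356), Gsta2 74.9 (others 818 to 1833), Idh2 816 (others 1444 to 1654), Idh3b 3953 (others 8268 to 8537), Mcm10 281 (others 877 to 1313), Me1 1739.9 (others 3262 to 4098) and Sdhd 5491 (others 7738 to 8645). The other values set apart were saline replicate 3 for Acat1 23876 (others 27688 to 29262), diclofenac replicate 1 for Atp5o 7305 (others 8137 to 8409.8), saline replicate 2 for Iigp1 15604 (others 7818 to 9331), saline replicate 4 for S100a9 10.2 (others 73.3 to 103) and saline replicate 4 for Tm9sf2 13727 (others 15023 to 15559). The cause was not tested.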

How the results depend on the processing

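With 240 rises and 117 falls in the fit as reported, rises came to 165 to 277 under no filter, the filter in 11 arrays, quantile normalization, median-centring, the added median, array weights, robust variances, equal days and the replicate block (215 rises and 87 falls). Falls came to 65 with arrays centred on their median and 58 with equal weight of days, a split of 197 rises to 65 falls and 165 to 58. The mean of all probe sets gave 129 rises and 74 falls. Without day 1, 3 or 14 there were 111, 55 and 72 rises and 30, 21 and 20 falls, from fewer arrays. Leaving out 1 array gave 153 to 315 rises and 59 to 179 falls. Rises were fewest without diclofenac day 1 replicate 2 (153) and day 3 replicate 1 (157). Falls were few without either of these (59 each), saline day 1 replicates 2 and 3 (66 and 73), day 3 replicate 3 (75) or day 14 replicates 2, 3, 4 and 5 (76, 67, 64 and 67), and 179 without diclofenac day 14 replicate 3. The methods' t-test on each day called 11 rises and 0 falls, and 0 and 0 after Benjamini-Hochberg. The cause of these shifts was not tested. Genes whose effect differed between days numbered 13 with array weights, 1 without day 1, 0 to 9 with 1 array left out, 7 without both diclofenac livers of highest acute phase level, and 8 without these and the saline liver, and otherwise 0.

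Of the 128 genes named that were called, 59 kept their direction and an adjusted p under 0.05 in each of 30 refits, and 69 did not in 1 or more. These refits were the 22 that leave out 1 array and those with another scaling, an average over probe sets, weights, robust variances, equal days or the block. Named genes were not followed under the filters, the left-out days, the t-test and the choices of livers made after seeing the data. Those that failed in at least 15 of the 30 were Ahsg, B4galt1, Bag3, Bmp6, Ces2a, Crp, Cyp2c70, F10, Fads2, Fas, Gm36741, Gsta2, Idh2, Iigp1, Ndufa5, Plg, Slc30a4, Slc39a1, Tifa, Tsc22d1, Uqcrc1 and Uqcrc2. Reversed were Reln over the mean of its probe sets (0.45), Alb under quantile normalization (-0.091), and other probe sets of Scara5 (-0.0847), Fance (-0.0473), Cpt2 (0.388), Cp (-0.0232), Mtss1 (-0.137) and Tm9sf2 (-0.0982). Replicate numbers did not pair the livers, since residual correlations of equal numbers within a day were -0.11 to 0.11. Signals near the array median limit the size of changes such as those of Chil3, Krt23 and Moxd1.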

Other observations

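Subunits of the respiratory chain and ATP synthase, grouped by symbol after their values were seen, were slightly lower. Of 80 tested, 7 fell and none rose, with 72 of 80 below 0 in the common difference (6843 of all 13340 genes) and a median of -0.16, and daily medians of -0.13, -0.02 and -0.25. The 7 were Ndufb10 (-0.38), Ndufa5 (-0.27) and Ndufab1 (-0.25) of complex I, Sdhd (-0.28) of complex II, the core proteins Uqcrc1 (-0.33) and Uqcrc2 (-0.24) of complex III, and Atp5o (-0.24) of ATP synthase, and no subunit of complex IV passed among 15. Mitochondrial enzymes that also fell were Idh2 (-0.40), Etfdh (-0.27), Acat1 (-0.28) and Mccc1 (-0.34). Cytosolic ribosomal proteins held no called gene in 42, with a median of 0.09.

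Glycosyltransferases of the secretory pathway, chosen in the same way, held 4 rises in 23 genes, while 1.8% of all genes tested rose. These were the sialyltransferases St6gal1 (0.84) and St3gal4 (0.58) and the galactosyltransferases B4galt1 (0.60) and B3galt1 (2.25). The family median was only 0.03, and 10 of the 23 were below 0 in the common difference. B4galt1 failed the test in 20 of 30 refits and St6gal1 in 14. Sult1e1, oestrogen sulfotransferase, rose by 2.40 (adjusted p = 0.0336) from signals below the array median.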
